A study of Drosophila melanogaster with 12 samples.

Results

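Peptidoglycan recognition proteins (PGRPs) are the proteins by which a fly detects the cell walls of bacteria, and pirk is an inhibitor of the signalling that they start. The genes described here are 9 PGRP genes and pirk, 10 of the 17610 genes in the deposited count table, and all 10 were found there by the FlyBase identifier of their symbol. They were sorted by known role into 3 receptors (PGRP-SA, PGRP-SD and PGRP-LC), 5 amidases (PGRP-SB1, PGRP-SC1a, PGRP-SC1b, PGRP-SC2 and PGRP-LB) and 2 inhibitors (PGRP-LF and pirk). The table holds 4 other PGRP genes, PGRP-LA, PGRP-LD, PGRP-LE and PGRP-SB2, which are given below for comparison.

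In Drosophila, peptidoglycan of the diaminopimelic acid type, found in most Gram-negative bacteria, binds PGRP-LC at the cell surface and PGRP-LE inside the cell and switches on the Imd pathway, whose transcription factor is Relish. Peptidoglycan of the lysine type is detected in the hemolymph by PGRP-SA, with help from PGRP-SD, and a protease cascade then activates the Toll pathway. The amidases cut peptidoglycan and thereby remove the ligand, and several of them, like pirk, are transcribed under Imd control and restrain the response, chiefly in gut and fat body.

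The libraries were made from whole female flies of the Oregon strain, 3 in each of 4 groups. All flies were kept at 25 °C for 3 days on standard medium with yeast and a green food dye. The control group received water in that mixture, the cisplatin group a solution of cisplatin, a platinum drug used against cancer whose adducts block DNA replication, the TiO2 group a suspension of TiO2 nanoparticles, and the combination group both substances at once. The labels disagree on the dose of each substance: the protocol gives 50 µg/ml, whereas the titles give 50 mg/ml. The age of the flies and the number of flies per library are not given in the sources used here. Nothing states that the libraries of a group came from separate cultures, so the p-values measure only the spread between these libraries. In whole bodies, fewer cells of a type and less RNA per cell cannot be told apart.

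The libraries held between 26763042 and 46694769 counts, and the lowest raw count of any of the 10 genes in any library was 58. Values are given as CPM (counts per mega-count of the library, after scaling the libraries by TMM) with their SD over the 3 libraries. Levels of different genes are compared only as CPM per kb of exon. Several libraries stood apart. Mitochondrial genes took 16.7% of the counts in control replicate 1 and 12.4% in combination replicate 2, against 6.20% to 9.45% elsewhere. Combination replicate 2 also held 1254 CPM of transcripts of male glands and testis and the roX RNAs, against 0.294 to 5.83 CPM in the other 11 libraries, which goes against its label as female. The summed CPM of 11 antimicrobial peptide genes of the Imd pathway was 985 in control replicate 3 and 381 in combination replicate 2, against 10.0 to 77.4 elsewhere.

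**Figure D1:**
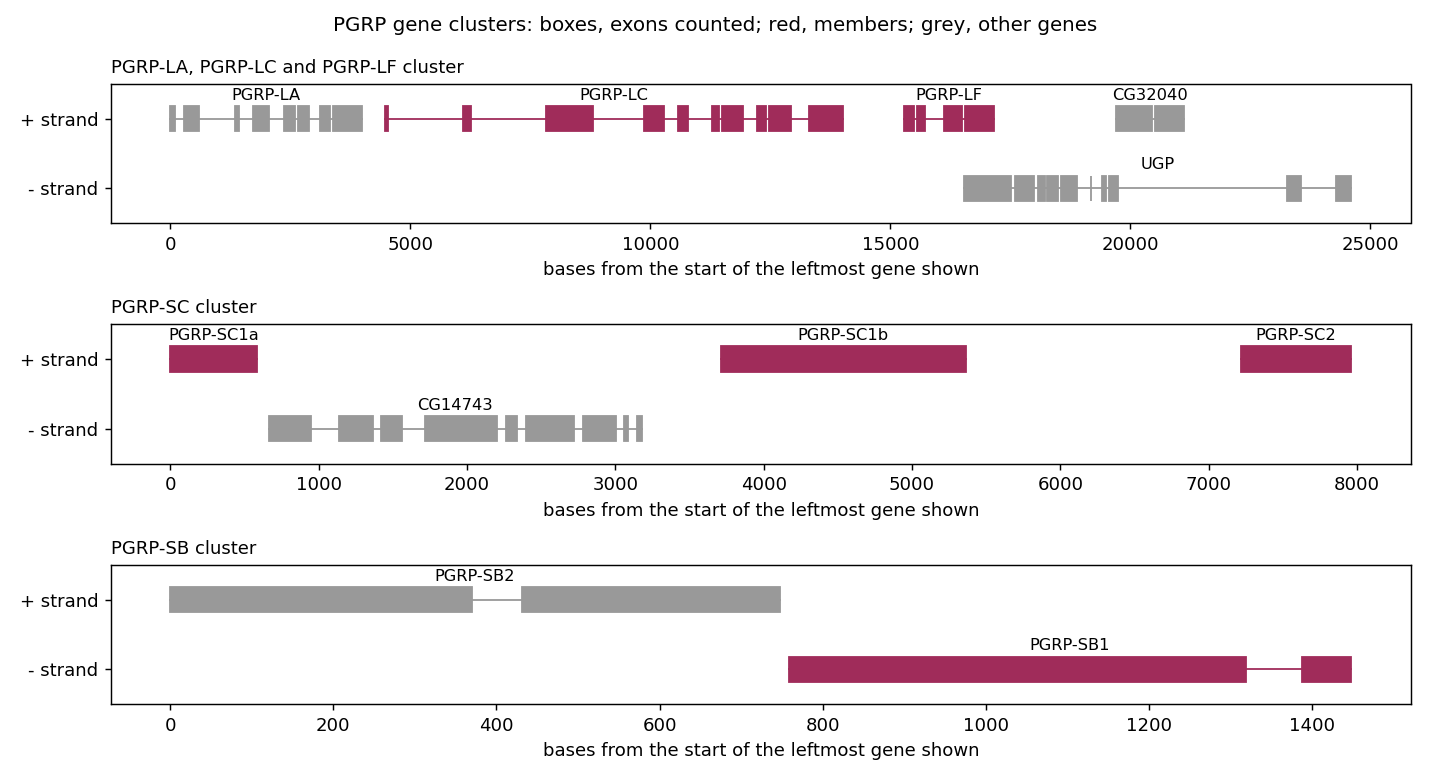
Maps of 3 groups of PGRP genes, drawn from the exons of the annotation, with bases from the start of the leftmost gene on the x axis and the strand on the y axis. Red boxes are exons of the genes described here and grey boxes those of other genes, and the last exon of PGRP-LF lies over an exon of UGP on the other strand.

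Many of these genes lie in clusters. PGRP-LC (FBgn0035976; chromosome 3L, 9338810 to 9348336, plus strand) starts 473 bases after PGRP-LA, and PGRP-LF (FBgn0035977; 3L, 9349609 to 9351489, plus strand) follows 1272 bases after PGRP-LC. PGRP-LC has 10 annotated transcripts with coding sequences of 329 to 520 codons, and the counts pool them all. PGRP-SC1a (FBgn0043576; 2R, 8709733 to 8710320), PGRP-SC1b (FBgn0033327; 2R, 8713446 to 8715094) and PGRP-SC2 (FBgn0043575; 2R, 8716950 to 8717695) lie within 1 stretch of 2R on the plus strand, each with 1 exon. The coordinates are those of the count table, and Ensembl's BDGP6.54 annotation has the same ones for all 10 genes.

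PGRP-SB1 (FBgn0043578; 3L, 16727299 to 16727989, minus strand) ends 10 bases from PGRP-SB2. PGRP-SD (FBgn0035806; 3L, 7651180 to 7651900, plus strand), PGRP-SA (FBgn0030310; X, 11561643 to 11562779, plus strand), PGRP-LB (FBgn0037906; 3R, 11452849 to 11460552, minus strand) and pirk (FBgn0034647; 2R, 21660967 to 21662995, minus strand) lie apart from the clusters.

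Some counts are uncertain. PGRP-SC1a and PGRP-SC1b are near-identical copies with 185 codons each, so reads can be split between them. The strand setting of the counting is not given in the sources used here. PGRP-LF shares 602 of its exon bases (44.43%) with UGP on the opposite strand, and UGP stood at 345 ± 112, 303 ± 29.3, 323 ± 41.6 and 369 ± 100 CPM in control, cisplatin, TiO2 and combination. PGRP-SD shares 35 bases (4.85%) with CG7492.

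Over all 12 libraries, PGRP-SC2, an amidase of the gut, had by far the highest level per length, with a mean of 142 CPM per kb. PGRP-SB1 followed with 25.3, PGRP-SD with 20.3, PGRP-SC1a with 15.4, PGRP-LB with 14.5 and pirk with 11.7 CPM per kb. PGRP-LC stood at 8.07, PGRP-SA at 6.28, PGRP-SC1b at 4.36 and PGRP-LF at 2.48 CPM per kb. PGRP-SC1b is divided by 1649 bases because the annotation gives it a longer second transcript, against 588 bases for PGRP-SC1a, so its level per length is understated if the short form prevails. PGRP-LE, the intracellular receptor, stood between 22.0 and 25.1 CPM per kb in the 4 groups, and PGRP-LD between 0.197 and 0.303.

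The 10 genes differed in which library was highest. Combination replicate 2 was the highest library for PGRP-SB1, PGRP-SA, PGRP-SD, PGRP-LC and PGRP-LF. Control replicate 1 was the highest for PGRP-SC1a, PGRP-SC1b, PGRP-LB and pirk, and control replicate 2 for PGRP-SC2. TiO2 replicate 1 was the lowest library for 6 of the 10 genes. The largest span between libraries was that of PGRP-SC1b, whose highest library was 24.0 times its lowest, and the smallest was that of PGRP-LC, at 2.90 times.

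**Figure D2:**
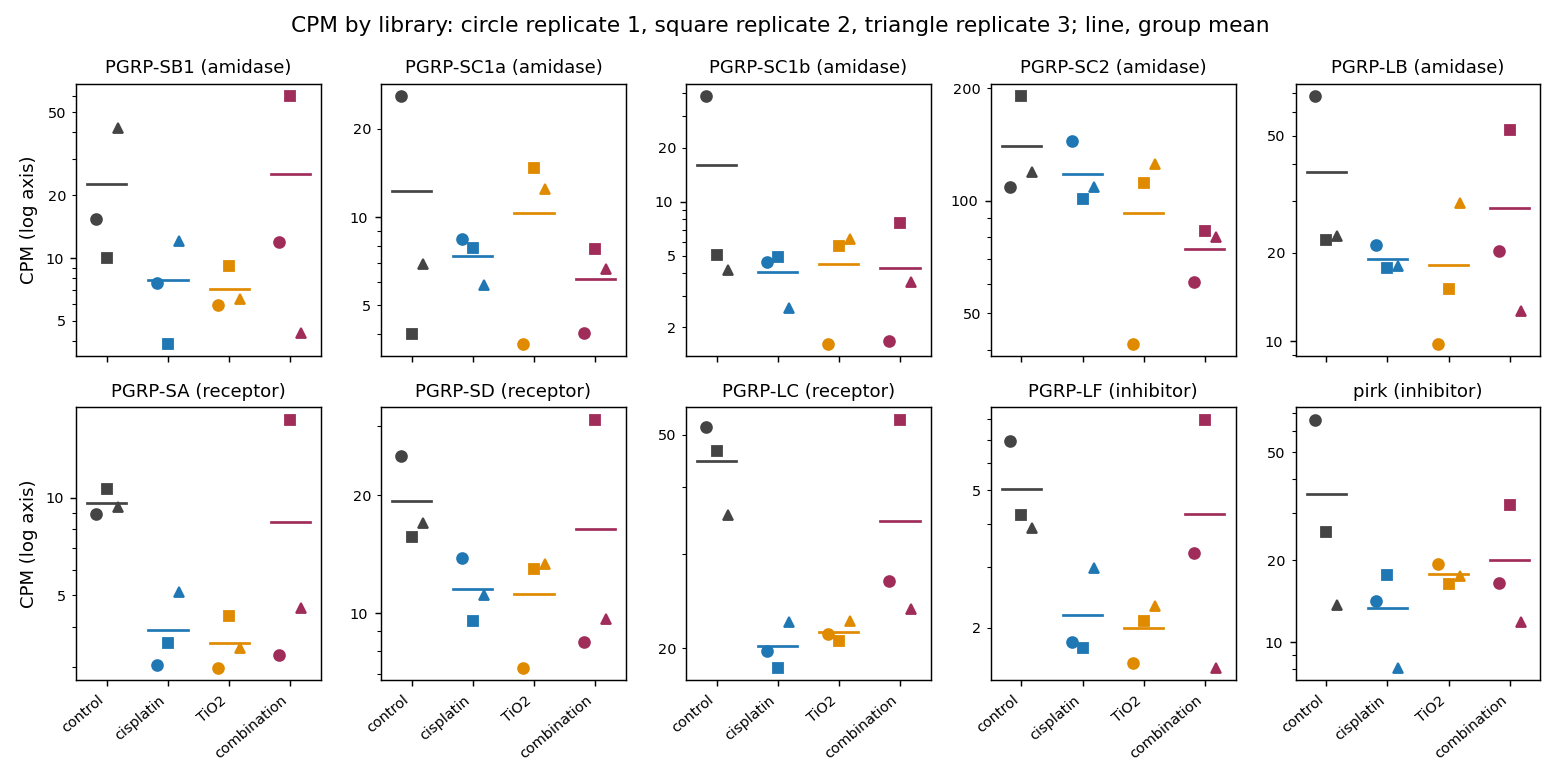
CPM of the 10 genes in every library on log axes, 1 panel per gene, with the groups on the x axis; symbols mark replicates 1 to 3 and lines the group means. For PGRP-LC the 3 control libraries (35.5 to 51.7 CPM) lie above all cisplatin and TiO2 libraries (18.4 to 22.5 CPM), while the combination libraries spread from 23.7 to 53.3 CPM.

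Among the receptors, PGRP-LC, the transmembrane receptor at the head of the Imd pathway, had the clearest separation. Its level was 51.7, 46.6 and 35.5 CPM in replicates 1 to 3 of control, 19.8, 18.4 and 22.4 CPM in those of cisplatin, 21.2, 20.7 and 22.5 CPM in those of TiO2, and 26.7, 53.3 and 23.7 CPM in those of the combination. Every cisplatin and TiO2 library was lower than every control library, and every combination library was higher than every cisplatin and TiO2 library. The means were 44.6 ± 8.32, 20.2 ± 2.03, 21.5 ± 0.924 and 34.6 ± 16.3 CPM (SD, n = 3 each). PGRP-LC was thus 2.21-fold lower in cisplatin and 2.08-fold lower in TiO2 than in control. The log2 fold changes were -1.14 (SE 0.29, unadjusted p 0.00247, edgeR) and -1.05 (SE 0.29, unadjusted p 0.00407). Neither passed a Benjamini-Hochberg adjusted p of 0.05 over all genes in edgeR (0.270 and 0.282). DESeq2 called both (adjusted p 0.0250 and 0.0406). Over all settings tried, the log2 fold change lay between -1.29 and -1.03 for cisplatin and between -1.20 and -0.95 for TiO2.

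PGRP-SA, the secreted receptor that acts with GNBP1 upstream of Toll, read 8.94, 10.6 and 9.37 CPM in replicates 1 to 3 of control, 3.05, 3.57 and 5.13 CPM in those of cisplatin, 2.98, 4.30 and 3.43 CPM in those of TiO2 and 3.27, 17.4 and 4.57 CPM in those of the combination. The cisplatin and TiO2 libraries all lay below the controls, and so did 2 of the 3 combination libraries, whereas combination replicate 2 lay above all controls. The fold change against control was 2.46-fold lower for cisplatin (log2 -1.30, SE 0.55, edgeR adjusted p 0.270) and 2.70-fold lower for TiO2 (log2 -1.43, SE 0.55, edgeR adjusted p 0.300). The log2 difference of the combination from control was -0.20, and -1.30 once combination replicate 2 was left out.

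PGRP-SD, a secreted PGRP that assists PGRP-SA in Toll activation and is also linked to Imd signalling, measured 25.2, 15.7 and 17.0 CPM in the control libraries, 13.9, 9.58 and 11.1 CPM with cisplatin, 7.25, 13.0 and 13.4 CPM with TiO2 and 8.46, 31.1 and 9.67 CPM with both. The order of the libraries resembled that of PGRP-SA: cisplatin and TiO2 did not overlap with control, and combination replicate 2 was the highest library of all. The log2 fold changes against control were -0.74 for cisplatin and -0.79 for TiO2, with an unadjusted p of 0.149 and 0.129 in edgeR. For the combination it was -0.23, and -1.09 once combination replicate 2 was left out. In all 3 receptors, the means of control and combination did not differ beyond the spread of the combination libraries, nor did those of cisplatin and TiO2.

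The amidases were more uneven. PGRP-SC2 read 109, 191 and 120 CPM in replicates 1 to 3 of control, 144, 101 and 109 CPM in those of cisplatin, 41.4, 112 and 125 CPM in those of TiO2 and 60.5, 82.9 and 80.2 CPM in those of the combination. Its group means ran from control (140 ± 44.4 CPM) over cisplatin (118 ± 23.1) and TiO2 (92.8 ± 45.0) to the combination (74.5 ± 12.2), and each group overlapped with its neighbours in that order. The 3 combination libraries lay below all control and all cisplatin libraries. Against control the combination was 1.88-fold lower (log2 -0.91, SE 0.38, edgeR unadjusted p 0.0351, adjusted p 0.651). Without combination replicate 2 the log2 difference was -0.99.

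Markers of the gut, where PGRP-SC2 is mainly expressed, were also lowest in the combination. The summed CPM of 14 gut marker genes, mostly digestive enzymes, ranged from 3230 to 6149 (control), from 3713 to 5143 (cisplatin), from 2020 to 4442 (TiO2) and from 1822 to 3056 (combination), and TiO2 replicate 1 had the lowest sum of its group, as it had for PGRP-SC2. None of the 14 markers was at 0 in all libraries. In the combination 11 of them were below control, 6 at an unadjusted p under 0.05 (3.82% of all genes, lower). The part of gut RNA in the PGRP-SC2 values was not tested.

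PGRP-SC1a, a gut amidase, measured 25.9, 4.00 and 6.94 CPM in the control libraries, 8.43, 7.83 and 5.86 CPM with cisplatin, 3.69, 14.8 and 12.5 CPM with TiO2 and 4.03, 7.80 and 6.63 CPM with both. PGRP-SC1b read 38.7, 5.07 and 4.17 CPM in replicates 1 to 3 of control, 4.63, 4.95 and 2.55 CPM in those of cisplatin, 1.61, 5.66 and 6.18 CPM in those of TiO2 and 1.68, 7.59 and 3.59 CPM in those of the combination. In both copies control replicate 1 stood far above all other libraries and the groups overlapped. The log2 difference from control of PGRP-SC1b was -1.98 for cisplatin and -1.83 for TiO2 with all libraries, and -0.20 and -0.06 without control replicate 1. For PGRP-SC1a the direction turned without that library, from -0.73 to 0.42 for cisplatin and from -0.25 to 0.90 for TiO2. The ratio of PGRP-SC1a to PGRP-SC1b counts was 0.669 in control replicate 1, against 0.789 to 2.61 in the other libraries.

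PGRP-LB, a secreted and cytosolic amidase that lowers Imd activation, measured 68.2, 22.1 and 22.8 CPM in the control libraries, 21.1, 17.8 and 17.9 CPM with cisplatin, 9.77, 15.1 and 29.6 CPM with TiO2 and 20.2, 52.3 and 12.6 CPM with both. Control replicate 1 and combination replicate 2 were again the 2 highest libraries. The cisplatin libraries lay just below the lowest control, at 21.1 against 22.1 CPM. The log2 fold change was -0.99 for cisplatin and -1.06 for TiO2 (edgeR adjusted p 0.306 and 0.317), and -0.25 and -0.32 without control replicate 1.

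PGRP-SB1, an amidase with bactericidal activity that is strongly induced through Imd in the fat body, read 15.5, 10.0 and 42.3 CPM in replicates 1 to 3 of control, 7.63, 3.88 and 12.1 CPM in those of cisplatin, 5.94, 9.13 and 6.37 CPM in those of TiO2 and 11.9, 59.8 and 4.36 CPM in those of the combination. Its high libraries were those in which the Imd peptides were high, combination replicate 2 and control replicate 3, and control replicate 1, which led in 4 other members, was not among its highest 2. All TiO2 libraries lay below all controls, by 9.13 against 10.0 CPM at the closest. The log2 fold change was -1.52 for cisplatin (SE 0.86, edgeR adjusted p 0.290) and -1.66 for TiO2 (SE 0.86, edgeR adjusted p 0.306), and -0.69 and -0.82 without control replicate 3.

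The 5 genes with expression most like that of PGRP-SB1 were taken from all genes with a mean of at least 5 CPM, by Pearson's r of log2 CPM over the 12 libraries. They were DptB (r = 0.92), Zip89B (0.88), arr (0.87), Uro (0.87) and Mtk (0.87), with Spearman's rho of 0.90, 0.85, 0.83, 0.80 and 0.78. DptB encodes diptericin B, a peptide of the Imd pathway, and Mtk metchnikowin, an antimicrobial peptide. These correlations run across libraries of all groups that differ in depth and in the composition described above, and they carry no test.

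Of the inhibitors, pirk, which binds PGRP-LC and Imd and removes the receptor from the cell surface, measured 65.8, 25.4 and 13.7 CPM in the control libraries, 14.1, 17.7 and 8.05 CPM with cisplatin, 19.4, 16.4 and 17.6 CPM with TiO2 and 16.5, 31.9 and 11.8 CPM with both. The control libraries alone spanned a 4.80-fold range, and every group overlapped with control. The log2 fold change was -1.39 for cisplatin (SE 0.55, edgeR unadjusted p 0.0295, adjusted p 0.270), and -0.57 without control replicate 1. For TiO2 it was -0.98, and -0.16 without control replicate 1.

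PGRP-LF, a membrane PGRP without a signalling tail that holds back PGRP-LC, read 6.92, 4.25 and 3.89 CPM in replicates 1 to 3 of control, 1.82, 1.74 and 2.98 CPM in those of cisplatin, 1.59, 2.09 and 2.31 CPM in those of TiO2 and 3.30, 7.98 and 1.53 CPM in those of the combination. All cisplatin and TiO2 libraries lay below all controls, while the combination held both the highest and the lowest library of the series. It was 2.30-fold lower in cisplatin and 2.51-fold lower in TiO2 (log2 -1.20, SE 0.54 and -1.33, SE 0.54; edgeR adjusted p 0.270 and 0.300). The ratio of PGRP-LC to PGRP-LF, per length, was 3.32 ± 0.633 for control, 3.50 ± 0.672 for cisplatin, 3.98 ± 0.745 for TiO2 and 3.65 ± 1.70 for the combination (SD, n = 3 each), so receptor and inhibitor stood in a ratio whose group means differed by less than the spread between replicates.

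**Figure D3:**
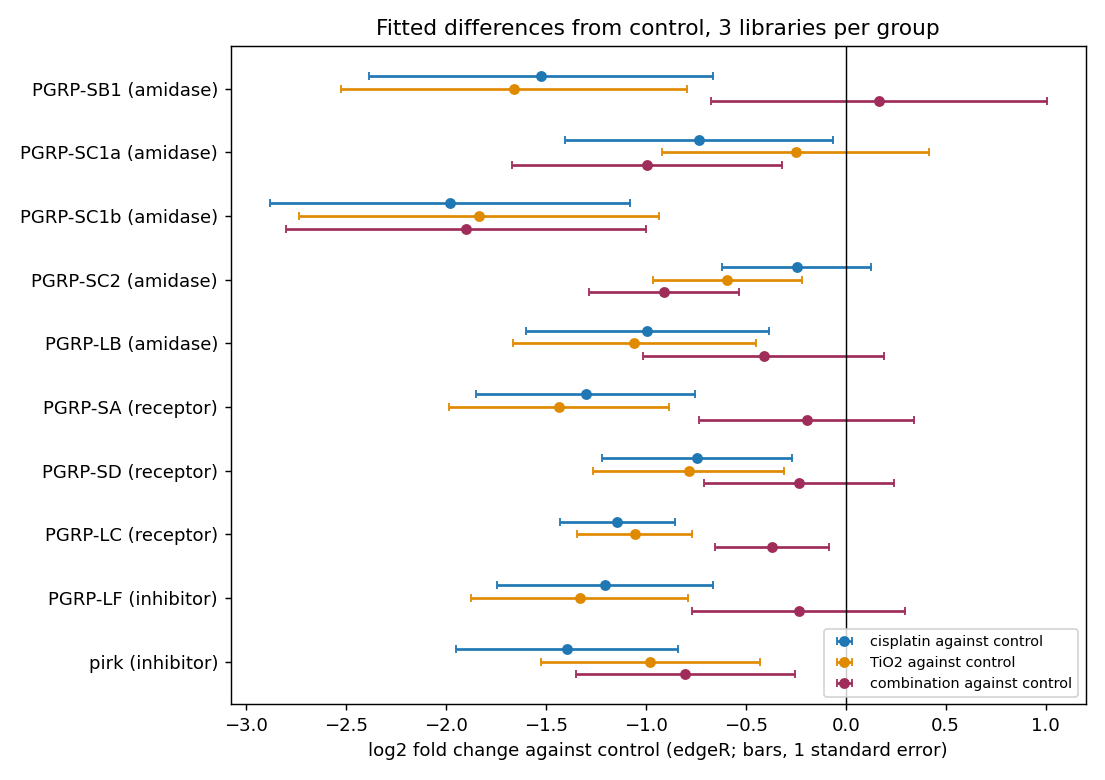
Fitted log2 fold changes against control (x axis) of the 10 genes (y axis), for cisplatin, TiO2 and the combination, with bars of 1 standard error; 3 libraries per group. All values of both single treatments lie below 0, and the combination values lie closer to 0 than both in PGRP-SB1, PGRP-LB, PGRP-SA, PGRP-SD, PGRP-LC, PGRP-LF and pirk.

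In cisplatin against control, all 10 genes were lower, with a median log2 fold change of -1.17, against -0.03 over the 11060 genes tested, of which 51.3% were below 0. None of the 10 genes passed the adjusted threshold in edgeR, where 0 of 11060 genes (0%) did. At an unadjusted p under 0.05, 4 members were lower (PGRP-SA, PGRP-LC, PGRP-LF and pirk), against 15.0% of all genes tested. The ranges of the libraries did not overlap and were lower in 5 members (PGRP-LB, PGRP-SA, PGRP-SD, PGRP-LC and PGRP-LF), against 15.0% of all genes. DESeq2 called 1 member, PGRP-LC, and 206 genes (1.86%) in all. Control replicate 1 carried much of the median: without it the median was -0.54 and 9 genes were lower. Only 1 member then had an unadjusted p under 0.05 (4.81% of all genes, lower). That count was also 1 without cisplatin replicate 1 (734 of 11294 genes, lower), where the median was -1.10. It was 7 without combination replicate 2 (25.2% of all genes, lower).

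In TiO2 against control, all 10 genes were also lower, with a median of -1.06, against -0.08 over all genes, 53.9% of which were below 0. This comparison uses the same 3 control libraries as that of cisplatin. In edgeR 0 members passed, and 0 genes did. At an unadjusted p under 0.05, PGRP-SA, PGRP-LC and PGRP-LF were lower, against 12.8% of all genes, and 5 members (PGRP-SB1, PGRP-SA, PGRP-SD, PGRP-LC and PGRP-LF) did not overlap with control, against 14.9% of all genes. DESeq2 called PGRP-LC, among 290 genes (2.62%). Without control replicate 1 the median was -0.66, 9 genes were lower and 2 had an unadjusted p under 0.05 (5.78% of all genes, lower). That count was 1 without TiO2 replicate 1 (7.37%) and 5 without control replicate 3 (22.6%).

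In the combination against control, 9 of the 10 genes were lower, with a median of -0.39, against 0.05 over all genes, 45.1% of which were below 0. PGRP-SC2 alone had an unadjusted p under 0.05 (3.82% of all genes, lower) and alone did not overlap (5.06%). No member passed the adjusted threshold in edgeR, where 0 genes did, or in DESeq2, which called 47 genes (0.425%). These values depended on single libraries in both directions. Without control replicate 1 the median was -0.036 and 6 genes were lower. Without combination replicate 3 it was -0.11 and 6 were lower, and without combination replicate 1 it was -0.22 and 7 were lower. Without control replicate 3 it was -0.59, and 3 genes had an unadjusted p under 0.05 (5.80% of all genes, lower). Once combination replicate 2 was left out, all 10 genes were lower, the median was -1.20, and 7 had an unadjusted p under 0.05 (13.1% of all genes, lower). In the 2 remaining libraries, 7 members lay below all controls (15.7% of all genes). No member passed the adjusted threshold in edgeR in that setting either, where 4 genes (0.0360%) did.

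Between the combination and the single treatments the outcome also depended on that library. Against cisplatin, 8 members were higher in the combination, with a median of 0.59, against -0.04 over all genes, of which 5224 of 11060 were higher. PGRP-LC had an unadjusted p under 0.05 (log2 0.77, edgeR unadjusted p 0.0214, adjusted p 0.334; 13.4% of all genes were higher at that level) and did not overlap (7.57%), and PGRP-SC2 was lower without overlap (7.82%). Without combination replicate 2 the median was -0.10 and 5 members were lower, and without combination replicate 3 it was 0.88. Against TiO2, 7 members were higher, with a median of 0.60, against 0.02 over all genes, of which 5640 of 11060 were higher. PGRP-SA and PGRP-LC had an unadjusted p under 0.05 (6.58% of all genes, higher), and PGRP-LC did not overlap (4.23%). Without combination replicate 2 the median was -0.22 and 6 members were lower, and without TiO2 replicate 1 it was 0.32. No member passed the adjusted threshold in edgeR or DESeq2 in either comparison; edgeR called 0 genes in both and DESeq2 called 36 (0.325%) and 3 (0.0271%).

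The interaction, which asks whether the combination differs from the sum of both single effects on the log2 scale, was positive in 8 members, with a median of 1.73, against 0.07 over all genes. Of all genes, 5732 of 11060 were positive. Leaving out control replicate 1 gave a median of 0.98, and leaving out combination replicate 2 one of 1.14. With both left out the median was 0.27, against 0.03 over all genes. In that setting 2 members had an unadjusted p under 0.05, with 1009 of 10998 genes higher at that level. With all 12 libraries, PGRP-SB1 (3.35), PGRP-SA (2.54), PGRP-LC (1.83) and PGRP-LF (2.30) were positive at an unadjusted p under 0.05, against 26.7% of all genes. In edgeR none of the 10 passed after adjustment (0 of 11060 genes did), while DESeq2 called these 4 genes, with 1611 genes (14.6%) called in all. Without combination replicate 2, PGRP-SB1 was at 1.71, PGRP-SA at 1.44 and PGRP-LF at 1.48, and 3 members had an unadjusted p under 0.05 (14.8% of all genes, higher), against 7 without combination replicate 3 (26.9%). For PGRP-LC the interaction was 1.83 (SE 0.41, edgeR unadjusted p 0.00102, adjusted p 0.129), and 1.37 without combination replicate 2. A test of any difference among the 4 groups gave an unadjusted p under 0.05 in PGRP-LC (0.00583) and PGRP-SA (0.0489), against 11.7% of all genes, and 0 genes passed after adjustment in edgeR. Leaving out 1 library gave 1 to 5 such members, and the number of all genes moved as well. The 5 members came without combination replicate 2, with 2248 of 11100 genes at that level. Without control replicate 1 the count was 1 member, with 739 of 11232 genes.

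**Figure D4:**
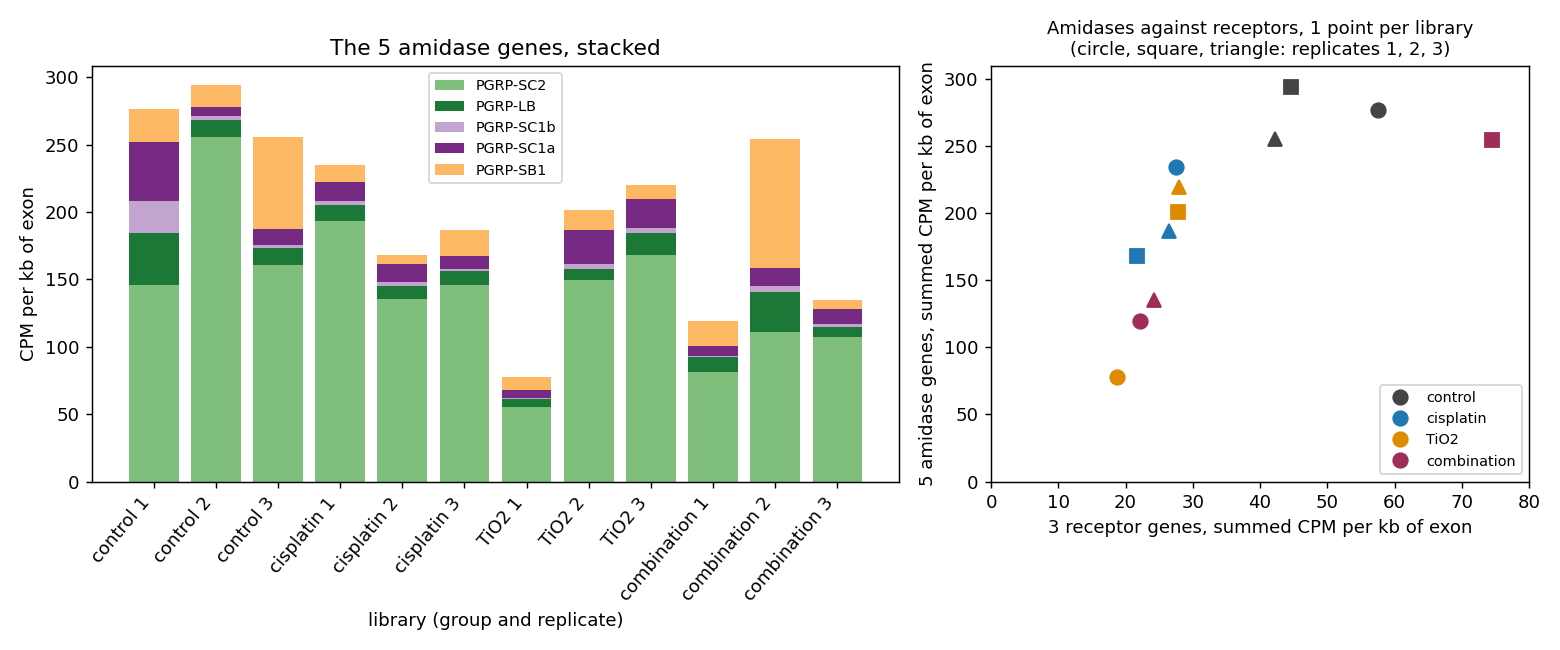
Left, the 5 amidase genes stacked in every library, in CPM per kb of exon; right, their sum (y axis) against the sum of the 3 receptor genes (x axis), both in CPM per kb, with 1 point per library. PGRP-SC2 is the largest part of the amidases in every library, from 43.7% in combination replicate 2 to 86.9% in control replicate 2, and combination replicate 2 lies farthest right, at 74.6 CPM per kb of receptors.

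Amidases and receptors were then set against each other. In control, cisplatin, TiO2 and combination, the summed amidase level was 275 ± 19.3, 196 ± 34.5, 166 ± 77.2 and 170 ± 73.8 CPM per kb (SD, n = 3 each). The summed receptor level was 48.2 ± 8.26, 25.2 ± 3.10, 24.8 ± 5.29 and 40.3 ± 29.7 CPM per kb in the same order. In cisplatin and TiO2 both sums were below control in every library.

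The ratio of amidases to receptors was 4.81, 6.59 and 6.05 in the control libraries, 8.54, 7.73 and 7.06 with cisplatin, 4.17, 7.26 and 7.88 with TiO2, and 5.41, 3.41 and 5.57 with both. The cisplatin libraries therefore lay above all control and all combination libraries, with means of 7.77 ± 0.741, 5.81 ± 0.913 and 4.80 ± 1.20, while TiO2 (6.43 ± 1.99) overlapped with control, cisplatin and the combination. The receptor sum leaves out PGRP-LE, which stood at 22.0, 24.8, 25.1 and 22.9 CPM per kb in control, cisplatin, TiO2 and combination. In cisplatin and TiO2 that is about as much as the 3 summed receptors. The ratio with PGRP-LE was not computed, so the separation is given for these 3 receptors only. PGRP-SC2 made up 67.5% ± 17.6, 80.4% ± 2.19, 74.0% ± 2.55 and 63.7% ± 18.3 of the amidase sum in control, cisplatin, TiO2 and combination. Without PGRP-SC2 the ratio was 1.79 ± 0.808, 1.52 ± 0.0278, 1.64 ± 0.385 and 1.60 ± 0.410, and all groups overlapped with control. PGRP-SC2 was the amidase with the smallest difference from control in cisplatin, with a log2 fold change of -0.24. No test was made on these sums, since the genes were chosen with results of these data known.

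The inhibitors pirk and PGRP-LF together stood at 22.7 ± 16.0, 8.82 ± 2.18, 11.1 ± 0.649 and 14.0 ± 8.14 CPM per kb. The ratio of pirk to PGRP-LC per length was 1.49 ± 0.957 for control, 1.38 ± 0.616 for cisplatin, 1.68 ± 0.150 for TiO2 and 1.16 ± 0.129 for the combination. These means differed by less than the spread between the control libraries, which ran from 0.785 to 2.58. The TiO2 libraries (1.58 to 1.85) lay above the combination libraries (1.01 to 1.25), both within the control range.

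**Figure D5:**
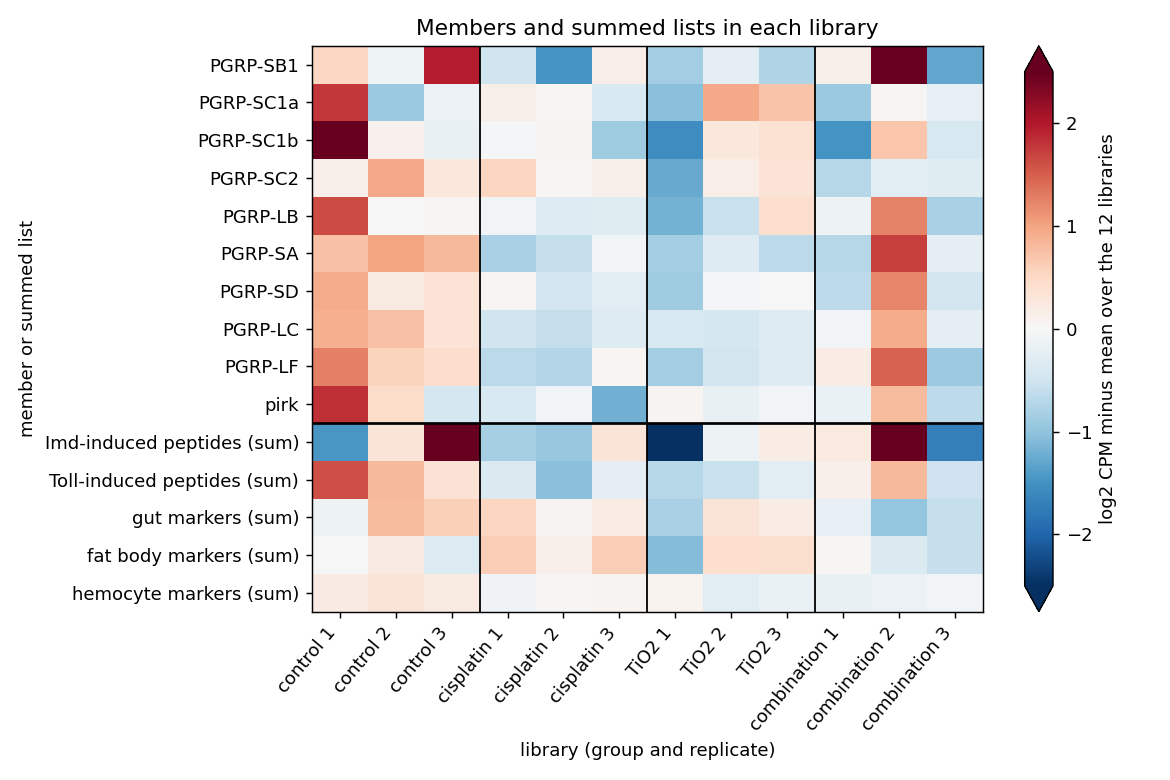
Log2 CPM of the 10 genes and of summed marker lists (rows) in each library (columns), minus the mean over the 12 libraries. Control replicate 1 and combination replicate 2 are red in most members, PGRP-SB1 and the Imd peptides are reddest in combination replicate 2 and control replicate 3, and TiO2 replicate 1 is blue in the gut and fat body markers as well as in the amidases.

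The other PGRP genes and the rest of both pathways were examined as lists. PGRP-LA, the neighbour of PGRP-LC, averaged 17.9 ± 4.16 CPM (control), 7.32 ± 0.188 (cisplatin), 7.94 ± 1.21 (TiO2) and 13.8 ± 7.97 (combination). Its cisplatin and TiO2 libraries lay below all controls (log2 -1.29 and -1.17, edgeR unadjusted p 0.00552 and 0.00940), so that all 3 genes of the PGRP-LA, PGRP-LC and PGRP-LF cluster shared this arrangement. Of all genes, 15.0% lay below all controls in cisplatin and 14.9% in TiO2. PGRP-LE averaged 45.7 ± 6.27, 51.4 ± 2.89, 52.1 ± 0.562 and 47.6 ± 9.24 CPM in the same order, with log2 fold changes of 0.17, 0.19 and 0.06. PGRP-LD had group means of 0.781 to 1.20 CPM, and PGRP-SB2, with at most 4 counts in a library, was not tested.

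Of the 12 core genes of the Imd pathway, from imd to Rel, none had an unadjusted p under 0.05 in any of the 3 comparisons with control, and their median log2 fold changes were 0.23 (cisplatin), 0.26 (TiO2) and 0.06 (combination). Rel, the gene of Relish, averaged 146 ± 15.5, 103 ± 8.13, 110 ± 9.99 and 161 ± 69.8 CPM in control, cisplatin, TiO2 and combination. Its cisplatin and TiO2 libraries lay below all controls (log2 -0.50 and -0.41, edgeR unadjusted p 0.0763 and 0.138). Of Dredd, the caspase that cleaves Relish, the TiO2 and the combination libraries lay below all controls (log2 -0.27 and -0.32, edgeR unadjusted p 0.116 and 0.0675). Of the 12 genes, 1, 2 and 1 were lower without overlap in cisplatin, TiO2 and combination, against 15.0%, 14.9% and 5.06% of all genes. Higher without overlap were 1, 1 and 0, against 1721, 1255 and 195 of 11060 genes. Of the 6 other inhibitors of the pathway, casp was higher in TiO2 (log2 0.56, edgeR unadjusted p 0.0482) and nub was lower in the cisplatin, TiO2 and combination groups (log2 -0.78, -0.99 and -0.91). All 3 differences of nub had an unadjusted p under 0.05 in edgeR (0.0311, 0.00956 and 0.0152), and none passed after adjustment.

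In the Toll pathway, genes of the extracellular side were mostly lower in cisplatin and TiO2, with none called. Those of the intracellular side were mostly higher, with none called, and their ranges mostly overlapped with control. Of 11 genes of recognition and the protease cascade, 10 were lower in cisplatin and 10 in TiO2, with medians of -0.99 and -0.94. Of these, 8 and 7 had an unadjusted p under 0.05, where 15.0% and 12.8% of all genes were lower. The protease gene spirit averaged 8.55 ± 2.87, 2.72 ± 0.645 and 2.85 ± 0.805 CPM in control, cisplatin and TiO2 (log2 -1.65 and -1.58). GNBP2, of the family to which GNBP1, the partner of PGRP-SA, belongs, had 15.9 ± 6.54, 8.04 ± 0.698 and 7.30 ± 0.277 CPM. The exception was spz, the gene of the Toll ligand, with 67.2 ± 35.8, 125 ± 8.25 and 128 ± 7.61 CPM. In the combination 10 of the 11 genes were lower, none at an unadjusted p under 0.05, with a median of -0.26. The 9 intracellular genes, from Tl to dl, had medians of 0.34, 0.48 and 0.20. In cisplatin and TiO2, 8 of them were higher, 0 and 1 at an unadjusted p under 0.05 (362 and 410 of 11060 genes). Higher without overlap were 0 and 2 (1721 and 1255 of 11060 genes). The summed CPM of the 9 ranged from 609 to 1197 (control), from 1075 to 1135 (cisplatin) and from 1065 to 1310 (TiO2). Dif, a transcription factor of the pathway, was lower in cisplatin (log2 -1.18, edgeR unadjusted p 0.0436), with overlapping ranges. The gene dl, which encodes the transcription factor Dorsal, was higher in TiO2 (log2 0.51, edgeR unadjusted p 0.0446), without overlap.

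The peptides that both pathways induce gave the output. Of 11 Imd peptides, 9 were lower with cisplatin, 11 with TiO2 and 5 with both, with medians of -1.58, -1.49 and 0.39. At an unadjusted p under 0.05, 3, 3 and 0 were lower, against 15.0%, 12.8% and 3.82% of all genes. With both, 2 were higher at that level (362 of 11060 genes). All 11 overlapped with control in each comparison. Their summed CPM was 22.4, 77.4 and 985 in control replicates 1 to 3. It ranged from 31.9 to 77.3 in cisplatin, from 10.0 to 70.7 in TiO2 and from 18.8 to 381 in the combination. DptB stood at 56.5 ± 94.2 CPM in control, where control replicate 3 set the mean, and at 1.93 ± 1.53, 1.62 ± 1.25 and 20.5 ± 29.7 CPM in cisplatin, TiO2 and combination. Of 13 Toll peptides, 13 were lower with cisplatin, 13 with TiO2 and 12 with both, with medians of -1.75, -1.66 and -0.82. Of these, 11, 11 and 3 had an unadjusted p under 0.05, where 15.0%, 12.8% and 3.82% of all genes were lower. Drs, the gene of drosomycin, averaged 157 ± 47.5, 81.4 ± 20.0, 65.8 ± 18.1 and 77.7 ± 9.36 CPM in the 4 groups in that order. No gene of these lists passed the adjusted threshold in edgeR. The 3 comparisons share the control libraries.

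Markers of the other tissues that express these genes were present in all libraries. The summed CPM of 9 fat body markers was 7951 in TiO2 replicate 1 and 11286 to 25736 elsewhere. That of 7 hemocyte markers ranged from 337 to 366 (control), from 275 to 305 (cisplatin), from 240 to 313 (TiO2) and from 257 to 277 (combination), and hemocytes are known to express PGRP-LC. That of 9 ovary markers ranged from 3014 to 9369.9 (control), from 9176 to 12603 (cisplatin), from 1777 to 8865 (TiO2) and from 1975 to 6154 (combination), and 9 of them were above control in cisplatin, 3 at an unadjusted p under 0.05 (3.27% of all genes, higher). None of the fat body, hemocyte and ovary markers was at 0 in all libraries. Their part in the differences of the receptors was not tested.

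The authors' deposited tables give their own comparisons with control. In the authors' deposited table for cisplatin, PGRP-LC had a log2 fold change of -1.14 and an adjusted p of 0.0298, and 127 genes (0.878% of those with an adjusted p) were under 0.05. In the authors' deposited table for TiO2, PGRP-SA (-1.38, adjusted p 0.000189), PGRP-LC (-0.99, adjusted p 0.00496) and PGRP-LF (-1.27, adjusted p 0.0246) were under 0.05, among 433 genes (4.03%). In the authors' deposited table for the combination none of the 10 genes was, and 70 genes (0.484%) were. The base means of the authors' deposited tables were equal for cisplatin and the combination to within a relative 1e-06 in 16141 of 16141 genes, and for cisplatin and TiO2 in 0 of them.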

How the data were processed

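RNA of whole female flies was measured in 12 libraries in 4 groups of 3, and groups were taken from the sample titles. The deposited table of raw counts, by gene, covers 17610 genes, and its columns are those of a featureCounts output, per the file headers. FastQC, Trimmomatic, BWA, SAMtools and HTSeq are named in the submitters' processing notes without versions or roles, and the build, the program that made the counts and its strand setting are not given in the sources used here. The authors also deposited 3 tables of treatment against control, with the columns of a DESeq2 results table, per the file headers. In these deposited tables a base mean (a normalized signal), a log2 fold change with its standard error, a test score, a p-value and an adjusted p-value are given per gene, and the base means and scores were used for no test here.

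The deposited counts were tested with edgeR 4.0.16 in R 4.3.3: filterByExpr on the 4 groups left 11060 genes, TMM gave the library sizes, and glmQLFit and glmQLFTest fitted 1 quasi-likelihood model to all 12 libraries. Tests were two-sided, with p-values adjusted by Benjamini-Hochberg over all genes tested and a threshold of 0.05. All 10 members passed the filter. CPM use TMM-scaled totals of the genes kept, and summed lists the totals of all genes. Alternatives were DESeq2 1.42.0, its size factors in edgeR, limma 3.58.1 voom with sample weights, other filters, a replicate block, the compared groups alone, and leaving out libraries. Leaving out pairs or sets of 3 libraries was chosen after seeing the data.

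The members and the gene lists were chosen with earlier results of these data known. All members were named; of each list, the gene of highest level per length and the 2 of smallest unadjusted p against control were eligible, and a selection of these is given. Of the ovary list, 9 of 10 genes were matched. No promoter sequence was used here, so the intended search for NF-kappaB motifs was not run.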

Additional observations from a re-analysis of the deposited data

Results flagged for a closer look

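PGRP-LC was marked because its response to each substance differed in direction with the presence of the other. On the log2 scale, the 3 TiO2 libraries lay at -1.09 to -0.97 against the control mean, whereas the 3 combination libraries lay 0.23 to 1.40 above the cisplatin mean. In the same way the cisplatin libraries lay at -1.26 to -0.97 against control, and the combination libraries at 0.14 to 1.31 against TiO2. The interaction was 1.83 and did not pass the adjusted threshold in edgeR (adjusted p 0.129), and it was 1.37 without combination replicate 2. The rise in the combination rested largely on that library. With it left out, the log2 fold change of the combination was 0.32 against cisplatin (edgeR unadjusted p 0.108) and 0.23 against TiO2. Neither had an unadjusted p under 0.05 in edgeR, so a change of direction was not shown without that library.

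Combination replicate 2 was marked for a signal outside the genes described here: transcripts of male glands and testis and the roX RNAs summed to 1254 CPM there, with 13 of 13 genes detected, against 0.294 to 5.83 CPM in the other libraries. The part of this library's composition in its high values of PGRP-SB1, PGRP-SA, PGRP-SD, PGRP-LC and PGRP-LF was not tested.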

How the results depend on the processing

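No member was called in edgeR with all libraries. DESeq2 called 1, 1, 0 and 4 members in cisplatin, TiO2 and combination against control and in the interaction. Voom with sample weights called 6, 5, 8 and 3, where 73.6%, 71.5%, 58.4% and 72.0% of all genes were called. These calls went in both directions. PGRP-SC1a was called higher in TiO2 (log2 1.26, voom adjusted p 0.0265) and negative in the interaction (-1.41, voom adjusted p 0.0473). The other called members were lower against control and positive in the interaction. The weights of voom were 0.278, 4.69 and 0.116 for control replicates 1 to 3 and 0.355, 0.0623 and 6.48 for those of the combination. Its values for these 2 groups therefore rested mainly on control replicate 2 and combination replicate 3. Over all settings that left out 1 to 3 libraries the counts ran from 0 to 6, 0 to 7, 0 to 6 and 0 to 3, and for any difference among the groups from 0 to 6. The highest counts came without control replicate 3 and combination replicate 2, where 64.0%, 63.2% and 52.9% of all genes were called against control, so that the background moved as well. Without control replicates 1 and 3 and combination replicate 2, PGRP-SA and PGRP-LC were called against control in all 3 comparisons and in the interaction, and PGRP-LC for any difference, where 45.2%, 40.3%, 27.6%, 29.5% and 16.5% of all genes were called. That setting leaves 1 control library, which is assumed to vary like the other groups. Leaving out 1 library gave a call only in the interaction: PGRP-LC without control replicate 3 (15.5% of all genes called), and PGRP-SA and PGRP-LC without combination replicate 1 (25.0%). The causes were not tested.

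Of 1310 values of a log2 fold change under another setting, 1161 kept direction and side of the threshold. In the same direction 59 newly passed it, and 90 turned direction. Among those that turned, voom also put PGRP-SC1a in TiO2 (1.26, voom adjusted p 0.0265) past the threshold. It did so for PGRP-SB1 in the combination against control as well (-1.19, voom adjusted p 0.0344). Ranges over the settings that left out libraries were, for PGRP-SC1a, -1.14 to 0.86 (cisplatin), -0.66 to 1.37 (TiO2), -1.49 to 0.42 (combination against control) and -1.82 to 0.39 (interaction). PGRP-SC2 ranged from -0.71 to 0.052 (cisplatin) and from -0.44 to 0.31 (interaction), and PGRP-SC1b from -0.51 to 2.34 (interaction). In the combination against control, PGRP-SB1 ranged from -1.69 to 0.98, PGRP-LB from -1.46 to 0.32, PGRP-SA from -1.44 to 0.18, PGRP-SD from -1.18 to 0.068, PGRP-LF from -1.21 to 0.16 and pirk from -1.69 to 0.017. Against cisplatin, PGRP-SC1b ranged from -0.62 to 0.45, PGRP-LB from -0.21 to 0.92 and PGRP-SD from -0.35 to 0.80. Against TiO2, PGRP-SC1b ranged from -0.76 to 0.30, PGRP-LB from -0.15 to 1.18, PGRP-SD from -0.31 to 0.85 and pirk from -0.34 to 0.43.

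With voom weights, PGRP-SC1a turned to 0.68 (cisplatin), 1.26 (TiO2) and 0.53 (combination against control) and PGRP-SB1 to -1.19 (combination against control). Against cisplatin, PGRP-SB1 turned to -0.57, PGRP-SC1b to -0.14, PGRP-LB to -0.52, PGRP-SD to -0.20, PGRP-LF to -0.40 and pirk to -0.061. Against TiO2, PGRP-SB1 turned to -0.57, PGRP-LB to -0.67, PGRP-SD to -0.31, PGRP-LF to -0.40 and pirk to -0.53. In the interaction, PGRP-SC2 turned to 0.30 and PGRP-LB to -0.34. With genes of at least 1 CPM in at least 3 libraries, the interaction of PGRP-SC1a was 0.081 and that of PGRP-SC2 was 0.0042.

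With counts not divided by length, the ratio of amidases to receptors was 3.11, 4.39, 3.56 and 2.48 in control, cisplatin, TiO2 and combination. A replicate block called 0 members, as did the fit without it, and left 1397, 1382 and 463 genes at an unadjusted p under 0.05 against control, where 2026, 1824 and 784 had been. Deviations from the group means, compared between libraries with the same number, had correlations from -0.74 to 0.47. With 3 libraries per group these correlations cannot tell whether the numbers pair the samples, and the labels do not say. No 2 libraries of a group agreed within sampling noise.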
